A study of Mus musculus with 6 samples.

Results

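Imprinted growth genes were followed in mouse uterus on day 13 of gestation. The genes were 10, taken by symbol (H19, Dlk1, Meg3, Cdkn1c, Peg3, Peg10, Mest, Plagl1, Ascl2 and Phlda2), and all 10 were found among the 24964 gene symbols of the deposited table. The tissue was uterus around the places where embryos had implanted, and 6 libraries of its RNA were sequenced, 3 from controls and 3 labelled as a knockout of PGR, the receptor for progesterone, in the myometrium (the muscle wall of the uterus), called deficient 1 to 3 below after that label. The labels used here do not give the alleles, the promoter that drove the deletion, the strain, the age of the mice or whether a library stood for a single animal. P-values therefore measure only how far these libraries spread, which may be technical in part or whole.

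An imprinted gene is read mainly from the copy inherited from a single parent. H19, Meg3, Cdkn1c, Ascl2 and Phlda2 are known to be expressed from the maternal copy, and Dlk1, Peg3, Peg10, Mest and Plagl1 from the paternal copy. Many imprinted genes act on growth before birth, are abundant in the embryo and placenta and are turned down after birth. In the pregnant uterus such transcripts can come from maternal muscle, stroma and vessels or from placenta and embryo left on the tissue.

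Levels are in FPKM, which scales fragment counts by gene length and library size, so that levels can be set side by side between genes. Summed FPKM lay between 357126 and 377091 per library, and sequencing depth is unknown. Differences are in log2(FPKM + 1), labelled deficient minus control, from limma, and a gene is called at a Benjamini-Hochberg adjusted p under 0.05 over the 12500 genes whose mean reached 1 FPKM. Pgr itself read 9.72, 8.33 and 12.1 FPKM in controls against 11.3, 12.4 and 7.73 FPKM under the deficient label. These overlap (limma adjusted p = 0.91). Bulk uterus holds other cells beside the muscle, so these values do not measure Pgr in the myometrium itself. Each direction below therefore rests on the label alone. Of 10 smooth muscle marker genes, 10 fell in the libraries labelled deficient. In such bulk tissue, fewer cells of a type and less RNA per cell cannot be told apart. The third library of the deficient group stood apart from the others: 56 of the 12500 genes were there at least 2 times as high as in every other library, against between 2 and 15 genes for each of the other 5 libraries.

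Meg3 and Plagl1 fell in the libraries labelled deficient, and none of the 6 genes tested rose. H19 and Dlk1 were high in deficient 3 alone, together with Igf2, the growth factor gene beside H19. Of the 6 imprinted growth genes with a mean of 1 FPKM or more, limma called 2 lower and 0 higher, where 4 had an unadjusted p under 0.05. Over all genes tested, 21.5% had an unadjusted p under 0.05 and 3.34% were called, 1.34% higher and 1.99% lower (168 and 249 genes). That split moved to 218 and 211 with each library rescaled to the same sum, to 123 and 391 with median-of-ratios scaling and to 131 and 338 with quantile normalization. The groups did not overlap for 4 of the 6, each time with the deficient libraries below (Meg3, Plagl1, Cdkn1c and Peg10). Over all genes tested, 8.16% were separated in that direction and 20.8% in the other. The median difference was -0.51 over the 6 genes and 0.06 over all genes tested. The members were chosen with earlier results of these data known, which may have shaped this contrast. No limma test was made of Ascl2, Peg3, Phlda2 and Dlk1, whose means lay under 1 FPKM. By mean level over the 6 libraries the order was H19 (7.29 FPKM), Cdkn1c (6.98), Plagl1 (6.58), Meg3 (4.51), Mest (2.60), Peg10 (1.19), Ascl2 (0.368), Peg3 (0.322), Phlda2 (0.153) and Dlk1 (0.0853). Each neighbouring pair in this order overlapped in range over the libraries, except Peg3 and Phlda2. The rank of H19 and the mean of Dlk1 rest on deficient 3. Without that library H19 had a mean of 5.25 FPKM, below Cdkn1c (7.25) and Plagl1 (6.76), and Dlk1 a mean of 0.0168 FPKM.

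**Figure D1:**
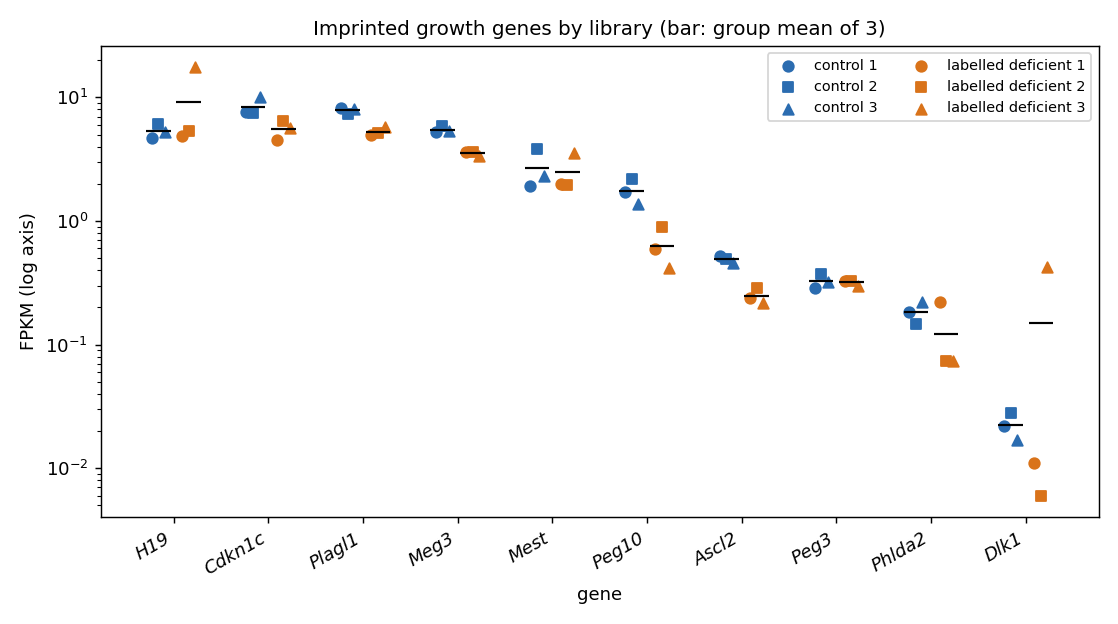
FPKM of the 10 imprinted growth genes (log axis) in the 3 control libraries (blue) and the 3 libraries labelled deficient (orange), with the marker showing the replicate number and a bar at each group mean. The orange points of Cdkn1c, Plagl1, Meg3, Peg10 and Ascl2 lie below all blue points, and the orange triangles of H19 (17.5 FPKM) and Dlk1 (0.428 FPKM) lie far above their other points.

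Meg3 is a long noncoding RNA of the Dlk1-Dio3 imprinted region, made from the maternal copy. Its gene spans chr12:109541001-109571726 (GRCm38, plus strand). Meg3 read 5.22, 5.86 and 5.39 FPKM in controls against 3.60, 3.62 and 3.34 FPKM under the deficient label. Every deficient library was below every control, and both groups were tight. The means were 5.49 ± 0.33 and 3.52 ± 0.16 FPKM (SD, n = 3 each), 1.56 times lower. The log2 difference was -0.52 (SE 0.07, 95% confidence interval from -0.69 to -0.36, limma adjusted p = 0.017). Without control 1, control 2, deficient 1 or deficient 2 the limma adjusted p was between 0.053 and 0.072, above the threshold, and the difference was from -0.55 to -0.48.

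The 300-base promoters of Meg3 and Plagl1, the members that fell, are shown as RefSeq gives them (GRCm38.p6), from 250 bases before to 50 after the start of transcription. Meg3 has a promoter at chr12:109540746-109541045 and another, for a start within the gene, at chr12:109545148-109545447, both on the plus strand. That of Plagl1 is at chr10:13090582-13090881 on the plus strand, inside the gene as GENCODE draws it. Capitals mark matches on either strand to ACANNNTGT (the core of the palindrome that steroid receptors bind), TGACGTCA (the cAMP response element), the CArG box (bound by serum response factor, a regulator of muscle genes) and TATAAA (the TATA box).
Meg3, first start: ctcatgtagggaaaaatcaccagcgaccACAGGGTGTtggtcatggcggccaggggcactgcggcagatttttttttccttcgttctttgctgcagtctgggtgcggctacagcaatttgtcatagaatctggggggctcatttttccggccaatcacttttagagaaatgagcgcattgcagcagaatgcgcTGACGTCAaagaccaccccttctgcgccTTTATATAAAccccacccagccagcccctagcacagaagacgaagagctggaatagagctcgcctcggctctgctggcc
Meg3, inner start: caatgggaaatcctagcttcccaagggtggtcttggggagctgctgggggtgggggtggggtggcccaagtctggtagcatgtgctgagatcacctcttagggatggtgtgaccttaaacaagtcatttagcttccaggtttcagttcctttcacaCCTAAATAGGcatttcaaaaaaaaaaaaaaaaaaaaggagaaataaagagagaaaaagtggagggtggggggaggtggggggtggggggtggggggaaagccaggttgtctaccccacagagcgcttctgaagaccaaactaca
Plagl1: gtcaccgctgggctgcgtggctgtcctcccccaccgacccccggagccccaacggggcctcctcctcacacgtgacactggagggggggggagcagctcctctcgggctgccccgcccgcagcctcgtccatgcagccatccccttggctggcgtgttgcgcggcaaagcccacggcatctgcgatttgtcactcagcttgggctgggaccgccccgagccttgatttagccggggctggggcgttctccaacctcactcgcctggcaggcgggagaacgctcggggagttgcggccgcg

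The first Meg3 promoter held ACANNNTGT once, beginning at -222 from the start (the base before the start is -1), and TGACGTCA once, beginning at -57. It also held 2 overlapping matches to TATAAA, beginning at -29 and -25. The inner Meg3 promoter held 1 CArG box, beginning at -94. Of all 32851 promoters in the RefSeq table, 6.85% held ACANNNTGT, 1.79% TGACGTCA, 1.63% a CArG box and 13.6% TATAAA. Plagl1's promoter held none of these 4, but 2 matches to GGGCGG, the GC box (not capitalised), which 35.7% of promoters held. It had 26 CG dinucleotides, more than 83.1% of promoters, and the first Meg3 promoter had 13, where the median promoter had 7. Promoters of 7 of the 10 genes were matched in this table. Of these, Peg3's also held TGACGTCA and Phlda2's a TATAAA. A match is a run of letters, and binding was not measured.

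Around Meg3, the groups also did not overlap for Rian, Dio3 and Begain. The first 2 did not pass the test, and Begain, at 0.824 ± 0.108 and 0.618 ± 0.050 FPKM (SD, n = 3 each), was under the filter. Rian, the next long noncoding RNA, 32.2 kb downstream, read 7.64, 9.69 and 6.35 FPKM in controls against 4.58, 5.36 and 4.11 FPKM under the deficient label. Rian differed by -0.63 between the groups (SE 0.15, limma adjusted p = 0.087). It passed under 3 of 17 alternatives (lowest adjusted p = 0.021). Mirg, a further noncoding RNA of the region, read 1.10, 1.24 and 0.753 FPKM against 0.502, 0.503 and 0.792 FPKM, and the groups overlapped through control 3 and deficient 3. Dio3, the deiodinase that inactivates thyroid hormone, stands at the far end of the region, 707 kb from Meg3. Its values were 19.2, 14.3 and 46.0 FPKM against 7.46, 6.56 and 0.768 FPKM, with a difference of -2.33 (SE 0.69, limma adjusted p = 0.13). Control 3 was the highest and deficient 3 the lowest, and each group spread widely. Of the 7 neighbours listed for this region, 4 were tested, 0 were called and 2 had an unadjusted p under 0.05, with a median difference of -0.28. Over all genes tested, 3.34% were called, 21.5% had such a p and 8.16% were separated with the deficient libraries below. Wdr25 and Ppp2r5c, which flank the region, differed by 0.07 and 0.11. Of 58 microRNA genes between Meg3 and Dio3, 45 were listed at 0 in every library. Rows for hairpins hold fragments assigned to the precursor, so they do not measure the mature microRNAs.

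**Figure D2:**
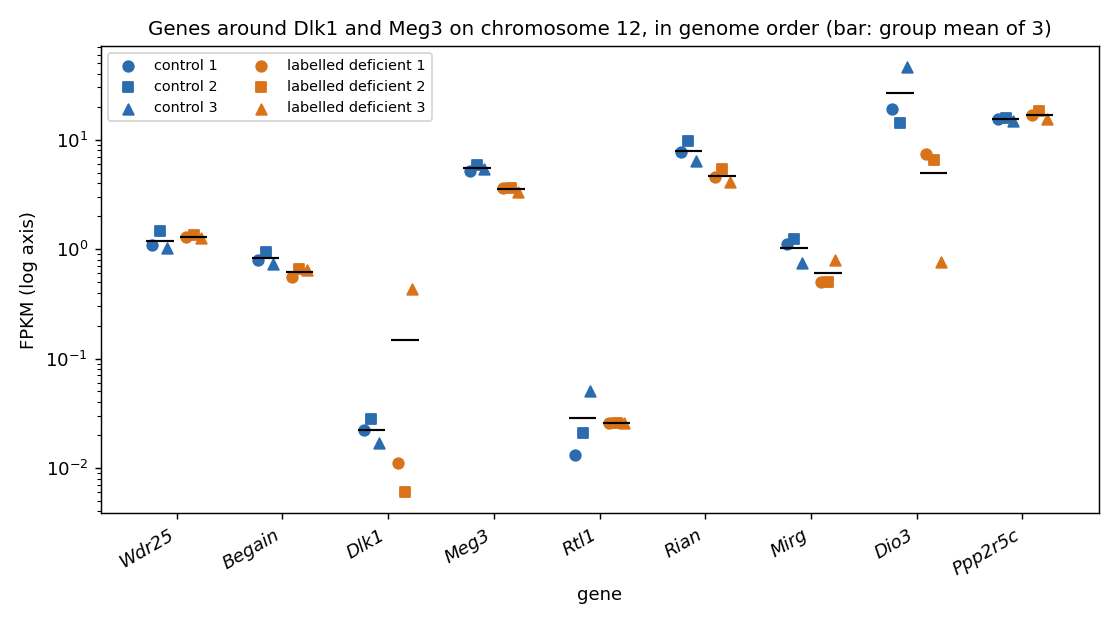
FPKM (log axis) of 9 genes around Dlk1 and Meg3 in genome order, by library, with a bar at each group mean. Orange points lie below all blue points for Begain, Meg3, Rian and Dio3, while Dlk1 shows a single high orange triangle at 0.428 FPKM.

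Plagl1 encodes a zinc finger transcription factor, also called Zac1, that restrains cell growth and is known to regulate other imprinted genes. Its gene spans chr10:13060504-13131694 on the plus strand. Plagl1 read 8.22, 7.32 and 8.07 FPKM in controls against 4.99, 5.17 and 5.71 FPKM under the deficient label. Every deficient library was below every control. The means were 7.87 ± 0.48 and 5.29 ± 0.38 FPKM (SD, n = 3 each), 1.49 times lower, with a difference of -0.50 (SE 0.07, 95% confidence interval from -0.68 to -0.32, limma adjusted p = 0.025). The limma adjusted p was between 0.062 and 0.12 without control 1, control 2, control 3, deficient 1 or deficient 2, above the threshold, and the difference was from -0.54 to -0.46. The 5 neighbours listed for Plagl1 were all tested, and 1 was called, where 3.34% of all genes tested were called. The called neighbour was Utrn, the gene of the dystrophin relative utrophin. Utrn rose from 6.89 ± 0.05 to 9.18 ± 0.64 FPKM (SD, n = 3 each; difference 0.37, limma adjusted p = 0.040), opposite in direction to Plagl1. Its call was lost in each fit without a single library (adjusted p up to 0.16).

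Cdkn1c encodes p57, an inhibitor of cyclin-dependent kinases that holds back cell division. It read 7.60, 7.46 and 10.2 FPKM in controls against 4.53, 6.47 and 5.65 FPKM under the deficient label (8.41 ± 1.52 and 5.55 ± 0.97 FPKM, SD, n = 3 each). The groups did not overlap, but control 3 stood above the other controls, and the difference of -0.52 (SE 0.15, 95% confidence interval from -0.89 to -0.16) did not pass (limma adjusted p = 0.13). With array weights, which let limma give noisier libraries less weight, its adjusted p was 0.047. Peg10, a gene derived from a retrotransposon and needed by the placenta, read 1.72, 2.18 and 1.36 FPKM in controls against 0.595, 0.887 and 0.414 FPKM under the deficient label. The groups did not overlap and the means were 2.78 times apart, the widest ratio with the controls above among the 6 genes tested. The difference of -0.76 (SE 0.15, 95% confidence interval from -1.13 to -0.38) missed the threshold (limma adjusted p = 0.058). It passed with median-of-ratios scaling (0.037), with quantile normalization (0.035), leaving out both control 3 and deficient 3 (0.039), and with array weights (0.013). With a pseudocount of 0.1 in place of 1, its difference was -1.37 (limma adjusted p = 0.067).

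Sgce, the sarcoglycan gene whose start lies 0.098 kb from that of Peg10 on the other strand, was at 19.8 ± 0.9 and 14.6 ± 1.9 FPKM (SD, n = 3 each). Its groups did not overlap either, with a difference of -0.42 (limma adjusted p = 0.079). Nor did those of 2 farther neighbours, Tfpi2 (-0.46, limma adjusted p = 0.11) and Pon2 (-0.20, limma adjusted p = 0.16). Of the neighbours tested, 3 were thus separated with the deficient libraries below and 0 with them above. Asb4, under the filter, was separated with them above. Of 8 neighbours of Peg10, 5 were tested and 0 were called, 3 with an unadjusted p under 0.05. Over all genes tested, 3.34% were called and 21.5% had such a p. Around Cdkn1c, Phlda2 and Ascl2, 8 of 12 neighbours were tested and 0 were called, 4 with an unadjusted p under 0.05, and the median difference was -0.15. Of the 8, 7 differences were below 0. For Cd81, a tetraspanin gene (-0.38), Tspan32, another (-0.28), and Tssc4 (-0.19), every library labelled deficient was below every control (limma adjusted p from 0.12 to 0.22). The single difference above 0 was that of Kcnq1. Kcnq1, a potassium channel gene, was at 3.64 ± 0.42 and 6.12 ± 1.98 FPKM (SD, n = 3 each), with the deficient libraries above (limma adjusted p = 0.16). Over all genes tested, 8.16% were separated with the deficient libraries below and 20.8% with them above.

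The remaining maternally expressed members of that region were under 1 FPKM in every library. Ascl2, a transcription factor of placental progenitors, read 0.520, 0.489 and 0.455 FPKM in controls against 0.236, 0.287 and 0.218 FPKM under the deficient label. Every deficient library was below every control, and the means were 1.98 times apart. The exact permutation p, two-sided, was 0.1, the smallest value that 3 libraries against 3 allow. With no filter on low values limma called Ascl2 lower (difference -0.26, adjusted p = 0.034). Phlda2, a brake on placental growth, read 0.183, 0.148 and 0.221 FPKM against 0.221, 0.074 and 0.073 FPKM, and the groups overlapped (exact permutation p = 0.4, two-sided). Within 1% and rounding, the values were 5, 4 and 6 and then 6, 2 and 2 multiples of a step of 0.0371 FPKM. If that step is a single read, each value rests on 6 reads or fewer. The step was the largest of many tried that fitted all libraries, and their depth is unknown. Its fit alone therefore does not show that it is a read.

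H19 and Dlk1 were set apart by a single library. H19 is a long noncoding RNA of fetal tissues and placenta, and its gene spans chr7:142575529-142578143 on the minus strand. H19 read 4.73, 6.06 and 5.27 FPKM in controls against 4.85, 5.35 and 17.5 FPKM under the deficient label. Deficient 1 and 2 lay within the range of the controls, and deficient 3 was 2.89 times the highest of the others. The means were 5.35 ± 0.67 and 9.24 ± 7.17 FPKM (SD, n = 3 each), and the groups were not separated (difference 0.48, SE 0.43, 95% confidence interval from -0.56 to 1.52, limma adjusted p = 0.56). Without deficient 3 the difference was -0.05 (limma adjusted p = 0.80).

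H19 carries the precursor of miR-675 in an exon. Its mature products, at chr7:142577112-142577133 and chr7:142577078-142577099 on the minus strand (RefSeq, GRCm38.p6), are shown because they are the best known product of this RNA. Capitals mark the seed, bases 2 to 8.
miR-675-5p: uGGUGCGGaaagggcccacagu
miR-675-3p: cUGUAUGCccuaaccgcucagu
The seeds of the products differ. The hairpin gene was listed at 0 in all 6 libraries, deficient 3 included. How reads shared with the H19 exon were assigned is not known, so this 0 does not show that the precursor was absent.

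Igf2, the fetal growth factor gene read from the paternal copy, lies 72.6 kb from H19 and shares its enhancers and imprinting control. Igf2 read 1.57, 1.54 and 1.24 FPKM in controls against 1.38, 1.11 and 4.65 FPKM under the deficient label. As with H19, deficient 1 and 2 were near the controls and deficient 3 was the highest, at 2.96 times the next library. The difference over the groups was 0.32 (limma adjusted p = 0.66), and -0.13 without deficient 3. Relative to the control mean, deficient 3 stood at 3.27 for H19 and 3.21 for Igf2. Of 6 neighbours of H19, 4 were tested and 0 were called, with 1 at an unadjusted p under 0.05. Over all genes tested, 3.34% were called and 21.5% had such a p.

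Dlk1 encodes a transmembrane protein related to the ligands of Notch, which holds precursor cells back from differentiating. Dlk1 read 0.022, 0.028 and 0.017 FPKM in controls against 0.011, 0.006 and 0.428 FPKM under the deficient label. Deficient 3 was 15.3 times the highest of the other 5, and the groups overlapped (exact permutation p = 1, two-sided). Within 1% and rounding, the 5 low values were whole multiples of 0.00563 FPKM, 4, 5 and 3 in the controls and 2 and 1 in deficient 1 and 2, and deficient 3 came to about 76. If such a step is a single read, the low libraries rest on 5 reads or fewer each. The step was again the largest of many tried that fitted, so its fit does not show that it is a read. Dlk1 lies 77.7 kb from Meg3 in the same imprinted region, and Meg3 did not share its high value: deficient 3 held the lowest Meg3 level of all 6 libraries, 3.34 FPKM.

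**Figure D3:**
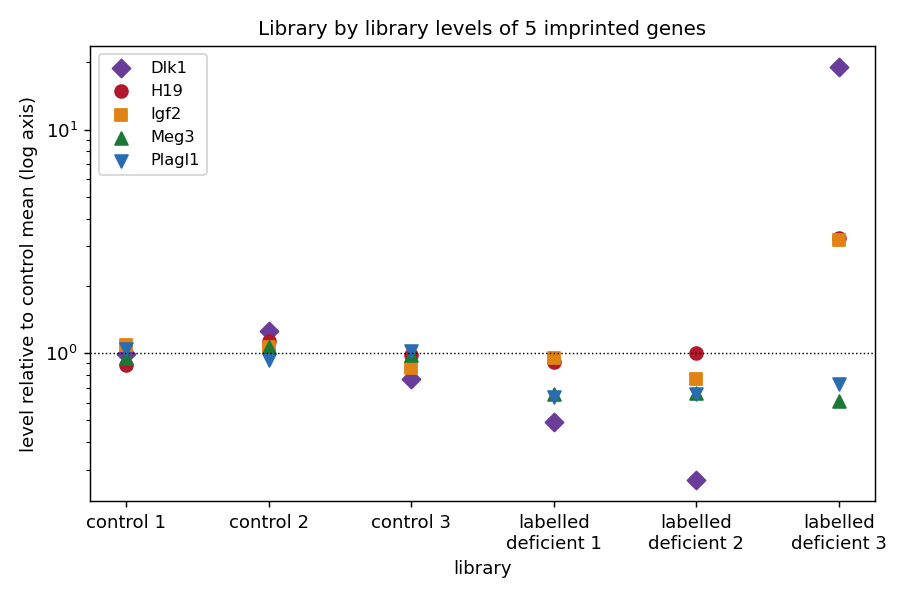
Level of 5 imprinted genes in each library relative to the mean of the 3 controls (log axis, dotted line at 1). In deficient 3, Dlk1 stands at 19.2, H19 at 3.27 and Igf2 at 3.21 times the control mean, while Meg3 (0.608) and Plagl1 (0.726) stay below 1 as in the other libraries labelled deficient.

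Mest, a hydrolase-like gene of mesoderm read from the paternal copy, read 1.91, 3.83 and 2.33 FPKM in controls against 1.99, 1.94 and 3.58 FPKM under the deficient label. The highest values came from 1 library of each group, control 2 and deficient 3, and the groups overlapped (difference -0.07, 95% confidence interval from -0.67 to 0.52, limma adjusted p = 0.89). Its neighbour Copg2 was between 6.71 and 7.85 FPKM over the 6 libraries. Mest and Copg2 lie on opposite strands and overlap at their ends, and without strand their reads there cannot be told apart. Peg3, a zinc finger gene known for its part in maternal behaviour and fetal growth, read 0.286, 0.373 and 0.320 FPKM in controls against 0.328, 0.329 and 0.298 FPKM under the deficient label. The deficient values lay inside the range of the controls (exact permutation p = 0.9, two-sided). Zim1, beside Peg3, was at 0.039 FPKM or less in every library.

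Most markers of placenta and embryo were at or near 0. Of 21 trophoblast genes, 18 were under 1 FPKM in every library, and Hand1, Gcm1, Synb, Prl8a8, Prl5a1 and Ctsq were listed at 0 in all 6. The 18 low genes summed to between 0.771 and 1.54 FPKM per library, with deficient 3 the lowest. The whole list summed to between 26.0 and 32.4 FPKM in the controls and between 19.6 and 24.7 FPKM in the libraries labelled deficient. Most of that came from Prl6a1, a prolactin family gene, at 23.9 ± 3.5 and 18.7 ± 2.8 FPKM (SD, n = 3 each, limma adjusted p = 0.24). Of the other 2, Pcdh12 is also a gene of endothelium (between 2.17 and 2.95 FPKM), and Prl2c2 passed 1 FPKM in control 2 alone (1.48 FPKM). Of 13 genes of embryo and yolk sac, 11 were under 1 FPKM in every library, and the list summed to between 2.66 and 3.92 FPKM in the controls and between 1.10 and 1.96 FPKM in the deficient libraries. The only gene of that list tested, Nppa, the atrial natriuretic peptide of heart muscle, fell from 2.36 ± 0.62 to 0.463 ± 0.017 FPKM (SD, n = 3 each; limma adjusted p = 0.013). In deficient 3, where H19, Igf2 and Dlk1 were high, the embryo list summed to 1.10 FPKM, as in deficient 1. Nppa, low in all 3 libraries labelled deficient, was a large part of that sum, which therefore does not follow the yolk sac genes alone. The embryonic globins Hbb-y, Hbb-bh1 and Hba-x were listed at 0 in all 3 libraries labelled deficient. Only 1 gene of the embryo list was at 0 in every library, so most of these globins were above 0 in at least 1 control. Afp, alpha-fetoprotein of yolk sac and fetal liver, was between 0.052 and 0.234 FPKM over the 6 libraries, highest in deficient 3. Whether placenta or embryo left on the tissue gave any of the imprinted transcripts was not tested. The genes are therefore called imprinted growth genes here, without a statement on their source.

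The summed markers of smooth muscle, fibroblasts and decidua were lower in every library labelled deficient than in every control, as were Meg3 and Plagl1. The trophoblast and embryo sums above were separated in the same direction, the first mostly through Prl6a1 and the second mostly through Nppa. Summed without the genes that passed 1 FPKM, the 18 low trophoblast genes overlapped. They lay between 0.967 and 1.54 FPKM in the controls and between 0.771 and 1.43 FPKM under the deficient label. The 10 smooth muscle markers summed to between 8113 and 9900 FPKM in the controls and between 3288 and 3868 FPKM in the libraries labelled deficient, with 0 of the 10 at 0. The 10 fibroblast markers summed to between 6314 and 6838 FPKM and between 5702 and 5981 FPKM, and the 14 decidual markers to between 415 and 792 FPKM and between 242 and 319 FPKM. No smooth muscle, fibroblast or decidual marker was listed at 0 in every library. Single decidual and fibroblast markers went both ways. Of the 12 decidual markers tested, 6 differences were above 0 and 6 below, and 1 was called, Fst, the activin inhibitor follistatin, which fell. The difference between the decidual sums came largely from Prl8a2, a decidual prolactin, at 155, 355 and 60.4 FPKM in controls against 5.44, 26.5 and 0.664 FPKM, and from Htra1, a secreted protease. Of the 10 fibroblast markers 3 differences were above 0 and 7 below, with 0 called (limma; 5 had an unadjusted p under 0.05). Most of that sum came from the collagen genes Col1a1, Col1a2 and Col3a1, while Pdgfra and Pi16 were higher in every library labelled deficient than in every control. The part of these lists, or of the trophoblast and embryo lists, in the fall of Meg3 and Plagl1 was not tested. Endothelial markers summed to between 176 and 192 FPKM in the controls and to 173, 161 and 214 FPKM in the deficient libraries, highest in deficient 3. Markers of uterine natural killer cells summed to between 18.2 and 21.0 FPKM in the controls and, under the deficient label, to 9.88 FPKM at the lowest and 18.4 FPKM in deficient 3. Of these markers Gzmc, a granzyme, read 5.53 FPKM in deficient 3 against 0.784 FPKM or less in every other library. Of the 2 natural killer cell markers tested, 1 was called lower. Epithelial markers summed to between 27192 and 38658 FPKM in the controls and to 22840, 24210 and 37704 FPKM, highest in control 3 and deficient 3. Nearly all of that sum was Prap1, a secreted protein of the epithelium. Of the 7 epithelial markers tested, 2 rose, Cdh1 (E-cadherin) and Krt19 (a keratin), and 0 fell, with a median difference of 0.32. Over all genes tested, 1.34% were called higher, 1.99% were called lower and 21.5% had an unadjusted p under 0.05. The part of these 3 lists in the high H19, Igf2 and Dlk1 of that library was not tested.

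Of 49 other imprinted genes in the table, 30 were tested, and 1 was called lower and 0 higher with limma, where 11 had an unadjusted p under 0.05 (over all genes tested, 3.34% were called and 21.5% had such a p). The median was -0.04, against 0.06 over all genes tested. The called gene was Ndn, which encodes necdin, a growth suppressor. Ndn read 15.4, 16.1 and 17.1 FPKM in controls against 9.38, 12.5 and 9.96 FPKM under the deficient label. It lay close to the threshold (difference -0.57, SE 0.11, limma adjusted p = 0.049), and under 12 of 17 alternatives it was above 0.05 (highest adjusted p = 0.16). The groups did not overlap for 8 of the 30 with the deficient libraries below and for 4 with them above, where 8.16% and 20.8% of all genes tested were separated in these directions. Of those listed as expressed from the paternal copy, 15 were tested with a median of 0.01. Of those listed as expressed from the maternal copy, 15 were tested with a median of -0.07. Reads from the maternal and paternal copies were not told apart in these data.

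**Figure D4:**
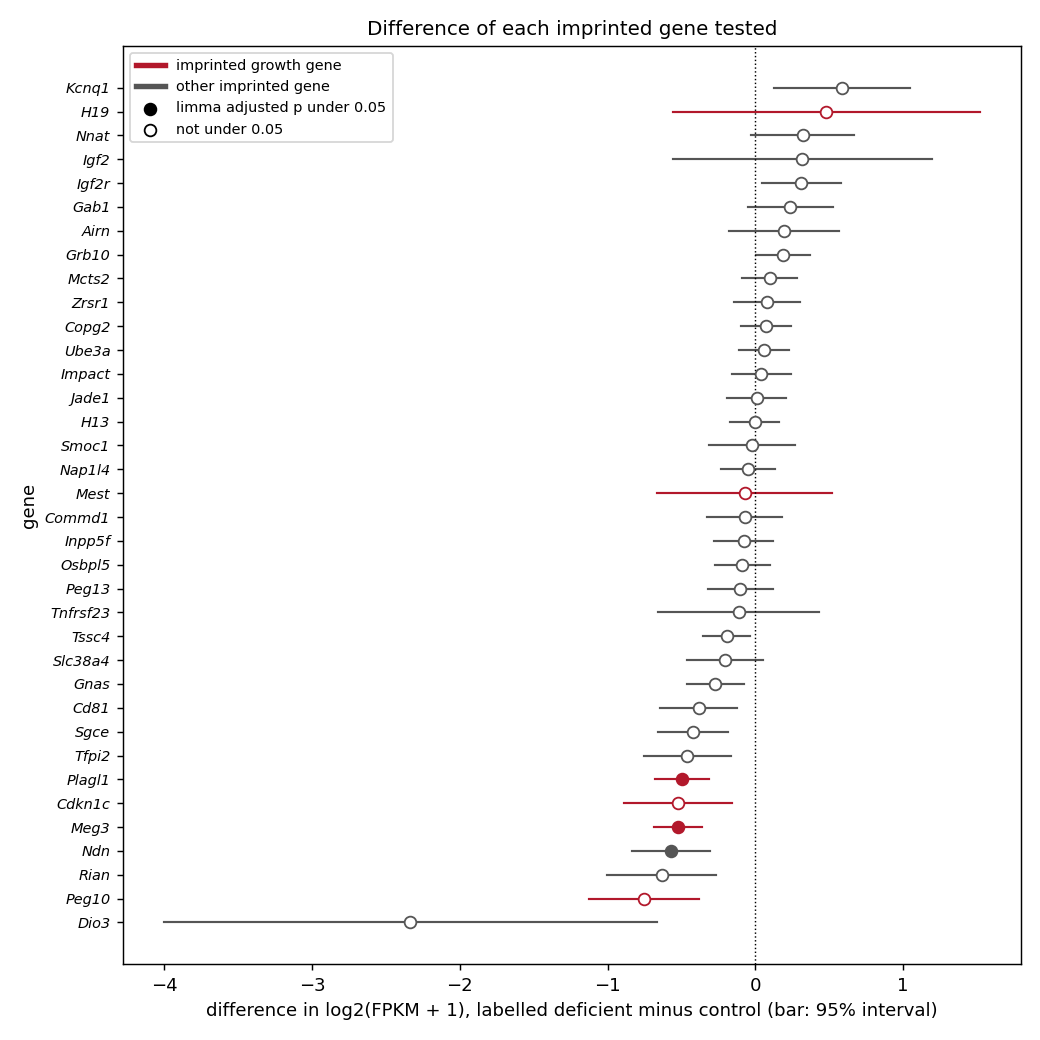
Difference in log2(FPKM + 1), labelled deficient minus control, with its 95% interval, for the 6 imprinted growth genes (red) and 30 other imprinted genes (grey) that were tested. Filled circles mark Plagl1, Meg3 and Ndn, the genes with a limma adjusted p under 0.05, and H19 and Igf2 have wide intervals that span 0.

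Of 14 genes of the insulin-like growth factor pathway tested, 1 fell and 0 rose, with a median difference of 0.09, where 3.34% of all genes tested were called. An unadjusted p under 0.05 was found for 7 of the 14, and for 21.5% of all genes tested. The groups did not overlap for 5 with the deficient libraries above and for 3 with them below. Of all genes tested, 20.8% and 8.16% were separated in these directions. The gene that fell was Igfbp2, a binding protein that holds IGFs in the extracellular space, from 621 ± 131 to 164 ± 21 FPKM (SD, n = 3 each; difference -1.90, limma adjusted p = 0.0050). Igfbp6, another binding protein, was at 350 ± 53 and 168 ± 43 FPKM (limma adjusted p = 0.051). Igf1 was at 10.6 ± 0.8 and 18.1 ± 4.2 FPKM (limma adjusted p = 0.082), and Igfbp5 at 79.4 ± 1.5 and 190 ± 86 FPKM (limma adjusted p = 0.088), each SD with n = 3. Igf2r, the receptor that clears IGF2 and is itself imprinted, was at 11.2 ± 0.5 and 14.3 ± 2.3 FPKM (SD, n = 3 each, limma adjusted p = 0.18).

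Among 12 genes of the Notch pathway tested, the route to which Dlk1 is related, limma called 0, and 2 had an unadjusted p under 0.05 (Jag1 and Heyl). Their median difference was -0.0043. Over all genes tested, 3.34% were called and 21.5% had an unadjusted p under 0.05. Of 10 cell cycle brakes tested besides Cdkn1c, 1 rose and 0 fell. Cdkn1a, which encodes p21 of the same inhibitor family as p57, rose from 18.0 ± 2.0 to 28.9 ± 2.9 FPKM (SD, n = 3 each; difference 0.65, limma adjusted p = 0.030). Its direction was opposite to that of Cdkn1c, and the call was lost in 6 of 17 alternatives (adjusted p up to 0.12). Cdkn1b, the remaining member of that family, lay between 18.1 and 19.8 FPKM in all 6 libraries.

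The genes most like the members that fell were sought by the root mean square distance between log2(FPKM + 1) profiles over the 6 libraries, each centred on its own mean. The 3 nearest to Meg3 were Cited2, a transcriptional coregulator (distance 0.036 log2 units), Col4a2, a basement membrane collagen (0.043), and Pdgfc, a platelet-derived growth factor (0.053). Those nearest to Plagl1 were Col16a1, a fibril-associated collagen (0.040), Map3k6, a protein kinase (0.043), and Eef2k, the kinase of elongation factor 2 (0.049). Col4a2 read 276, 282 and 265 FPKM in controls against 201, 201 and 190 FPKM under the deficient label. As with Meg3, deficient 3 was its lowest library. The profiles were compared over the same 6 libraries in 2 groups, so genes that differ between the groups by a like amount lie close together.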

How the data were processed

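RNA from 6 mouse uterine samples, 3 control and 3 labelled deficient, was isolated with TRIzol and made into Illumina libraries, per the labels' protocols. The authors deposited FPKM, 1 column per sample, and cutadapt 2.7, STAR 2.7.0f, DESeq2 1.24.0 and the build mm10 are named in the submitters' processing notes without a role. The sources used here do not give the counting program, the annotation, the strand or the handling of shared reads. Each column matched 1 sample by name.

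Values were analysed as log2(FPKM + 1) with limma 3.58.1 in R 4.3.3 (intensity trend, all 6 samples, no covariate) over the 12500 genes whose mean reached 1 FPKM, with Benjamini-Hochberg adjustment. The procedure was tested on simulated data, drawn gene by gene from normal distributions. With 200 of the 12500 genes changed, it recovered 77.5% of 2-fold and 94% of 4-fold changes. False calls numbered 10 and 11. Changes under 2-fold, such as those of Meg3 and Plagl1, were not simulated. Each member also had an exact permutation test (two-sided). Positions came from GENCODE M21 and sequences from RefSeq (GRCm38.p6). The members and gene lists were chosen with earlier results of these data known. The text names all members, any neighbour, up to 4 genes of each other list by p (marker genes by level or as listed at 0), and the 3 nearest profiles of each called member. Cdkn1b, Igf2r, Afp, Gzmc and the low trophoblast, globin, decidual, fibroblast and epithelial genes were named after their values were seen. Alternatives were other pseudocounts, filters and scalings, limma without the trend or with array weights, a replicate block, and leaving out libraries.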

Additional observations from a re-analysis of the deposited data

How the results depend on the processing

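The number of imprinted growth genes called, 2 and both lower, was 1 with a minimum mean of 5 FPKM (fewer genes tested), 4 with array weights, 3 without control 3 and deficient 3 together (chosen after seeing the data), and 0 to 2 with 1 library left out (1 when control 3 was left out, and 0 when it was control 1, control 2, deficient 1 or deficient 2). It stayed within 2 to 3 under the other pseudocounts and scalings, with no filter and without the trend, and 0 of them were called higher under any alternative. Over all genes, 417 were called, against 1770 with array weights, 1274 without control 3 and deficient 3 together, and 99 to 519 with 1 library left out (99, 104, 130 and 185 without control 1, control 2, deficient 1 and deficient 2). With median-of-ratios scaling 391 genes were called lower, against 249. The cause was not tested.

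Same-numbered samples did not deviate together (correlations of -0.14, 0.08 and -0.13 across genes), so they share a number and are not taken as paired. With the replicate block 0 members and 143 genes were called.

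The median over the members tested lay between -0.58 and -0.43 under all alternatives. Meg3, Mest, Peg10 and Igf2 gave no value with the minimum of 5 FPKM. The sign of 5 uncalled differences reversed. H19 was between -0.054 and 0.78 with 1 library left out and at -0.061 without control 3 and deficient 3 together, Igf2 between -0.13 and 0.58 and at -0.19, and Mest between -0.28 and 0.14 and at -0.34. Dlk1, not tested under the filter, was between -0.020 and 0.23 and at -0.023. Peg3, also not tested, was between -0.030 and 0.017 and at 0.0065 with each library rescaled to the same sum. The depth of single libraries is unknown, so no counting error can be given.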

Other observations

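Deficient 3 also held high levels of genes outside the imprinted set, named here after their values were seen. Of the 12500 genes tested, the 5 that stood farthest above the other 5 libraries there were Prss28, an implantation serine protease of uterine glands (11.6 times the highest other library), Kcnj1, a potassium channel (8.44 times), Asprv1, an aspartic protease (8.10 times), Gm11545 (7.23 times) and Gzmc, a granzyme (7.06 times). In that ranking Igf2 was 25th and H19 27th. Farther down, Prss29, the partner of Prss28, was 4.76 times and Alb, the albumin gene of fetal and adult liver, 4.03 times the next library, at 4.24 FPKM against 1.05 FPKM or less elsewhere.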
